A study of Rattus norvegicus with 21 samples.

Results

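The 37 genes of the rat mitochondrial genome were described in 21 liver RNA-seq libraries. They were chosen as all genes that the deposited tables place on chromosome MT, out of 32623 genes in each table. The set holds 13 protein-coding genes, 2 rRNA genes and 22 tRNA genes. The tables name the mRNAs, whereas the rRNA and tRNA genes carry only identifiers and are called by those here.

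The study set livers of early weaned rats against livers of control rats. In the Wistar strain the groups were early weaned and control livers at d23 and early weaned and control livers at d63. In the Sprague Dawley (SD) strain, all at d211, they were early weaned livers of rats given 1.5% leucine in the drinking water, early weaned livers and control livers. Each of the 7 groups had 3 libraries, and the title names adult obesity, fatty acid oxidation and cholesterol metabolism as its subject. The labels used here give no age at weaning, no age at which leucine was given and no count of animals, so every p-value speaks of the spread among libraries, which may be technical. Strain, table and the oldest age are the same split, so values at d211 cannot be told apart from strain and were never tested against the Wistar values.

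The mitochondrial genome is a small circular DNA present in many copies per cell. In mammals both strands are transcribed into long precursors that are cut, mostly at the tRNAs, into separate mRNAs, rRNAs and tRNAs. The mRNAs encode core membrane subunits of complex I, complex III, complex IV and ATP synthase. The other subunits of these complexes, and the proteins that copy, transcribe and process mitochondrial nucleic acids, come from nuclear genes. Liver cells rely on this respiratory chain to oxidize the fatty acids that milk supplies in quantity before weaning.

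On the strand that the tables give as plus, called here the heavy-strand genes, lay 12 of the 13 mRNA genes, both rRNA genes and 14 tRNA genes. On the minus strand, called the light-strand genes, lay Mt-nd6 and 8 tRNA genes. The shorter rRNA gene, ENSRNOG00000030478, spanned bases 68 to 1025 of chromosome MT and the longer one, ENSRNOG00000043866, bases 1094 to 2664, in coordinates whose rat build is not named. Some reading frames overlap in these coordinates, Mt-atp8 and Mt-atp6 by 43 bases, Mt-nd4l and Mt-nd4 by 7 bases, Mt-atp6 and Mt-co3 by 1 base, and Mt-nd5 and Mt-nd6 by 23 bases on opposite strands. Reads in such overlaps could have been counted for either gene, and the labels do not say whether counting used strand.

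Library totals ran from 52054644 to 75118153 counts, and 10250 to 11082 genes reached 1 FPKM (fragments per kilobase of transcript, scaled to the depth of the library) in a library. Alb, which encodes albumin and is the defining hepatocyte transcript, was the gene of highest count in 21 of 21 libraries, and none of the 8 measured hepatocyte markers was at 0 in any group. The library of control d23 replicate 3 stood apart, with 18.1% of its count in Alb, against 7.16% to 11.2% in the other 5 libraries of that age. It had the lowest FPKM of the 6 libraries at d23 for 16 of the 22 tRNA genes and for 5 of the 13 mRNA genes, so some results at d23 that rest on it are also given without it.

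Transcripts of the mitochondrial genome made up between 6.61% and 11.97% of the total count of a library. Nearly all of this was mRNA, as the 2 rRNA genes together held 0.0254% to 0.157% and the 22 tRNA genes 0.0043% to 0.0247% of a library. Relative to length the mRNAs were among the most abundant transcripts of the liver. All 13 were among the 100 genes of highest FPKM in 20 of 21 libraries, and their ranks over all libraries lay between 2 and 102.

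At d23 the mitochondrial share was 11.97%, 10.3% and 11.7% in early weaned livers, against 10.6%, 11.7% and 10.5% in control livers. At d63 it was 9.39%, 8.64% and 9.60% in early weaned livers, against 9.14%, 8.76% and 8.57% in control livers. At neither age were the weaning groups apart, whereas every library at d63 lay below every library at d23. The means were 9.21% ± 0.50 in early weaned livers at d63 against 11.3% ± 0.90 in early weaned livers at d23, and 8.82% ± 0.29 in control livers at d63 against 10.9% ± 0.63 in control livers at d23 (SD, n = 3 each). The difference was -2.09 percentage points in early weaned livers and -2.10 points in control livers. The counting error of a share was at most 0.0164 points either way (Wilson interval, 95%, with a fragment taken as 4 count units), small beside these differences, and covers counting only.

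At d211 the share was 8.13%, 8.30% and 6.61% in early weaned livers given leucine, 6.61%, 7.36% and 7.57% in early weaned livers, and 7.75%, 8.65% and 9.11% in control livers. All 3 early weaned livers lay below the 3 control livers, with means of 7.18% ± 0.51 in early weaned and 8.50% ± 0.69 in control livers (SD, n = 3 each), a difference of -1.32 points. The livers given leucine averaged 7.68% ± 0.93 and overlapped with both other groups. As shares and totals over the members were chosen with results known, they carry no p. A share in bulk tissue falls in the same way if fewer cells of a type are present or if each holds less mitochondrial RNA, and these cannot be told apart here.

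**Figure D1:**
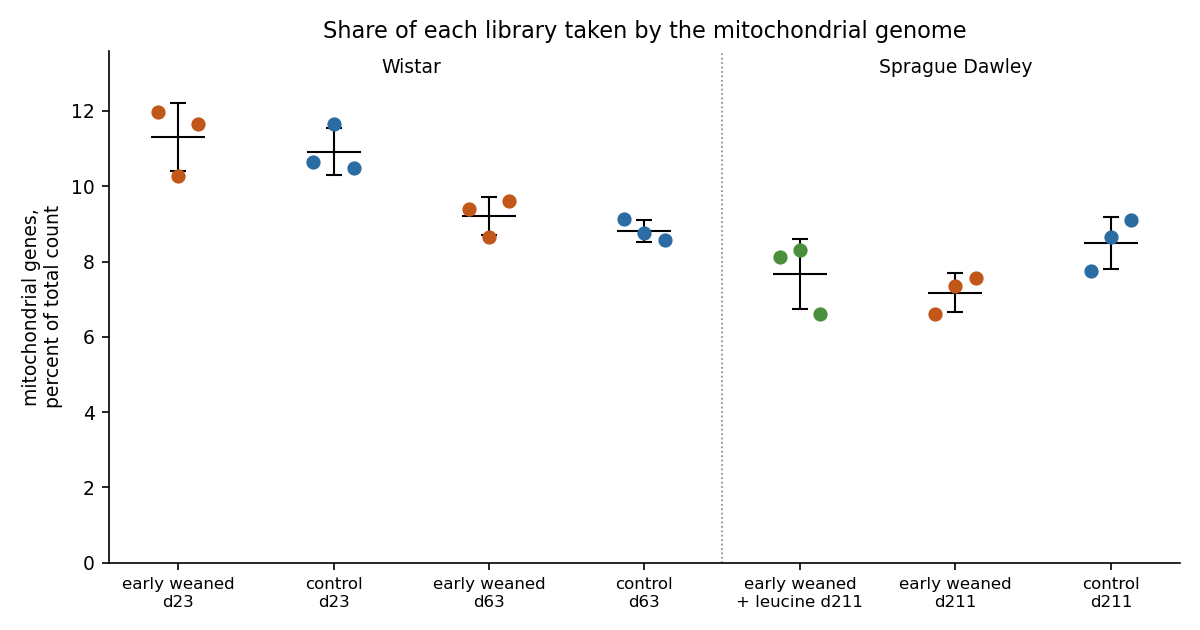
Share of each library's total count that fell on the 37 mitochondrial genes, in percent, with points for libraries and lines for group means. The 6 Wistar livers at d63 lie below the 6 at d23, and the 3 early weaned livers at d211 lie below the 3 control livers of that age.

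Levels of the mRNAs differed from gene to gene in an order that varied little between groups. The subunits of complex IV and ATP synthase led. Mt-co1, the catalytic subunit of cytochrome c oxidase, was the first or second of the 13 by mean FPKM in every group, Mt-atp6 was between position 1 and 4, and Mt-co3, Mt-co2 and Mt-atp8 took the rest of the top 5. Mt-nd1 of complex I and Mt-cyb, the only mitochondrially encoded subunit of complex III, took positions 6 and 7, followed by Mt-nd2 and Mt-nd4. Mt-nd3, Mt-nd4l and Mt-nd6 shared positions 10 to 12, and Mt-nd5 was lowest in 7 of 7 groups.

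Among the complex IV mRNAs, Mt-co1 had 18807 ± 1158 FPKM in early weaned and 18424 ± 238 FPKM in control livers at d23, and 18541 ± 2206 FPKM in early weaned and 16481 ± 895 FPKM in control livers at d63 (SD, n = 3 each). At d211 it had 17307 ± 2217 FPKM in early weaned livers given leucine, 17096 ± 1583 FPKM in early weaned livers and 17621 ± 429 FPKM in control livers. Relative to their size, these 7 group means lie closer together than those of the other 12 mRNAs, and the spread within a group was small too, with a median coefficient of variation of 6.16%. Mt-co2 had 14708 ± 1126 FPKM in early weaned and 13862 ± 1395 FPKM in control livers at d23, and 11079 ± 559 FPKM in early weaned and 10197 ± 700 FPKM in control livers at d63. At d211 it had 8504 ± 1686 FPKM with leucine, 7433 ± 643 FPKM in early weaned livers and 9757 ± 1230 FPKM in control livers. Mt-co3 ranged over groups from 9713 ± 752 FPKM in early weaned livers at d211 to 14072 ± 1701 FPKM in early weaned livers at d23.

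Complex I mRNAs were lower per length and spread over a wide range. Mt-nd1 lay between 5310 ± 341 FPKM in early weaned livers at d211 and 9240 ± 714 FPKM in early weaned livers at d23, and Mt-nd2 between 3768 ± 400 FPKM in early weaned livers at d211 and 6336 ± 106 FPKM in control livers at d23. Mt-nd5, the longest of the set's reading frames, lay between 927 ± 301 FPKM in early weaned livers at d211 and 2009 ± 355 FPKM in early weaned livers at d23. The FPKM of Mt-co1 was 7.93 to 24.1 times that of Mt-nd5 in a library. Neighbours in the order often could not be separated by the spread, since the libraries of adjoining genes overlapped in 10 of 12 neighbouring pairs in livers given leucine, in 7 of 12 in early weaned and 6 of 12 in control livers at d211. At d63 the overlap was 3 of 12 in early weaned and 6 of 12 in control livers, and at d23 it was 6 of 12 in early weaned and 4 of 12 in control livers.

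Complex IV mRNAs took a larger part of the mitochondrial mRNA count at d63 than at d23 in Wistar livers. They held 46.2% in early weaned and 46.3% in control livers at d23, and 50.6% in early weaned and 48.4% in control livers at d63. At d211, in SD livers, they held 54.6% in early weaned livers given leucine, 56.5% in early weaned livers and 51.9% in control livers. These values cannot be told apart from strain and table, so they are not read as a later step in age. The early weaned and control libraries did not overlap in this percentage at d63 or at d211, whereas at d23 they did. Mt-atp6, the gene that 2 of the d211 libraries held at a low level, counts toward this total. Without those libraries, 1 of each early weaned group, the percentages at d211 were 53.1 and 54.2 in livers given leucine and 55.0 and 55.3 in early weaned livers, against 50.9 to 52.9 in control livers.

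The 2 rRNAs, which form the RNA core of the mitochondrial ribosome, were far below the mRNAs in these mRNA-selected libraries, with 0.386 to 1.36 rRNA counts per 100 mRNA counts. The shorter rRNA had 515 ± 43.0 FPKM in early weaned and 388 ± 114 FPKM in control livers at d23, and 312 ± 85.7 FPKM in early weaned and 272 ± 66.0 FPKM in control livers at d63. The longer rRNA had 483 ± 182 FPKM in early weaned and 362 ± 195 FPKM in control livers at d23, and 228 ± 67.1 FPKM in early weaned and 193 ± 46.5 FPKM in control livers at d63. Their spread within a group, with median coefficients of variation of 24.3% and 24.2%, was wider than that of most mRNAs.

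The tRNA genes, 60 to 75 bases long, are far shorter than the other genes, so their FPKM values were read only against each other. The 8 light-strand tRNA genes held 76.6% to 86.2% of all tRNA counts in a library. Their median level was 253 FPKM in Wistar and 76.3 FPKM in SD libraries, against 5.91 and 3.86 FPKM for the 14 heavy-strand tRNA genes. The highest was ENSRNOG00000032997, a light-strand gene at bases 14062 to 14130 between Mt-nd6 and Mt-cyb, with a mean of 426 FPKM in Wistar and 333 FPKM in SD libraries. ENSRNOG00000032274 led the heavy-strand genes with 177 and 102 FPKM, and ENSRNOG00000032882 was the light-strand exception at 2.74 and 0.42 FPKM. ENSRNOG00000031780, the first gene of the map, had at most 4 counts in any library and was tested in neither table.

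**Figure D2:**
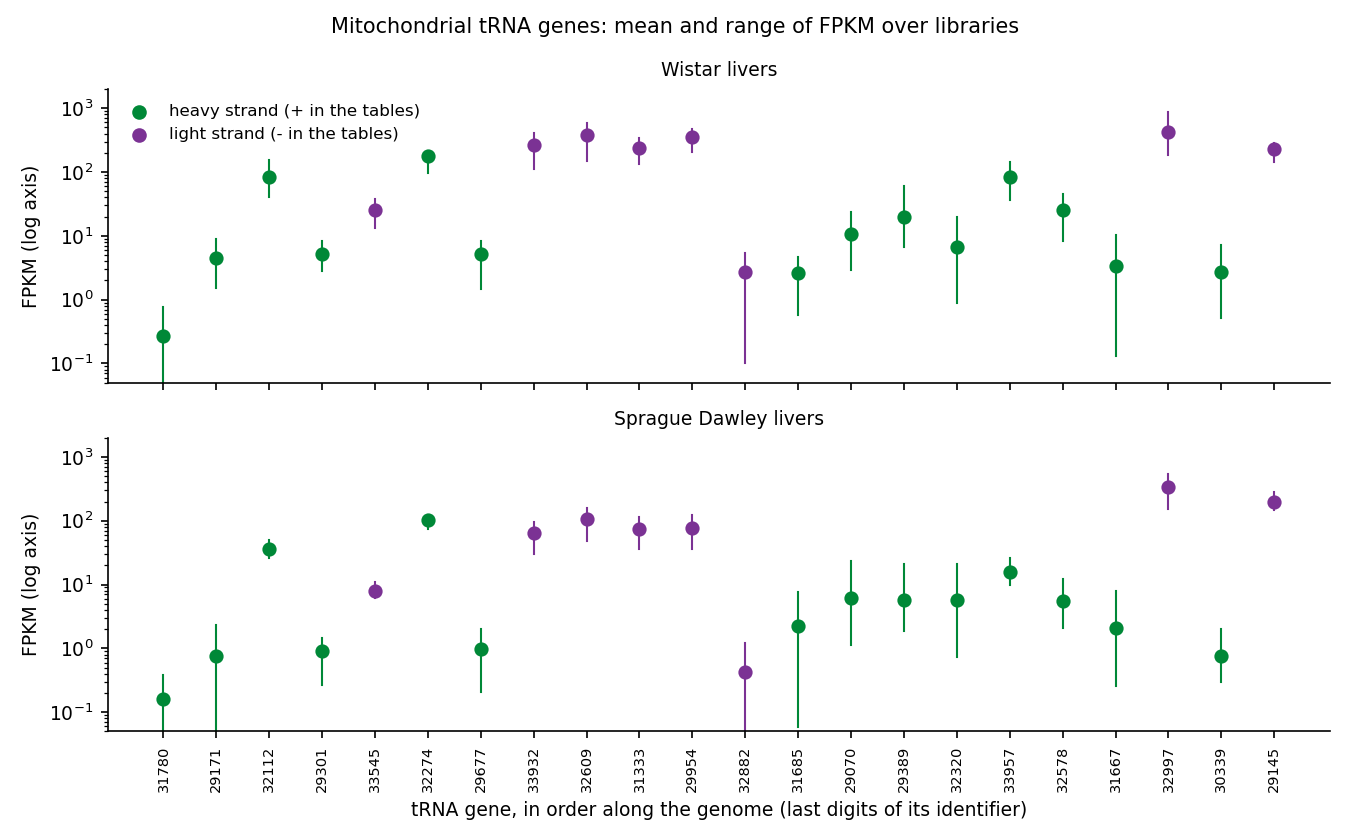
FPKM of each tRNA gene in map order on a log axis, with points for the mean and bars for the range over the libraries of a table, coloured by strand. Most light-strand genes lie above most heavy-strand genes in both tables, and range bars are cut at the lower end of the axis, 0.05 FPKM.

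Mt-atp6, which encodes the proton channel subunit a of ATP synthase, varied among the SD libraries in a way that its neighbours did not. At d211 it had 3740, 12849 and 11052 FPKM in early weaned livers given leucine, 11543, 3288 and 12967 FPKM in early weaned livers, and 12197, 14752 and 15518 FPKM in control livers. Replicate 1 of the leucine group and replicate 2 of the early weaned group were the 2 low libraries. Their Mt-atp8 levels were 11018 and 10873 FPKM, against 7879 to 10777 FPKM in the other 7 SD libraries. The ratio of Mt-atp6 to Mt-atp8 FPKM was 0.339 and 0.302 in these libraries and 1.19 to 1.60 in the other 7. Mt-co3, which follows Mt-atp6 on the map, was within the range of the other libraries in both, so only 1 of 3 adjoining genes was low. What set these libraries apart was not tested, and values of Mt-atp6 and of the counts of calls at d211 are also given without them.

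**Figure D3:**
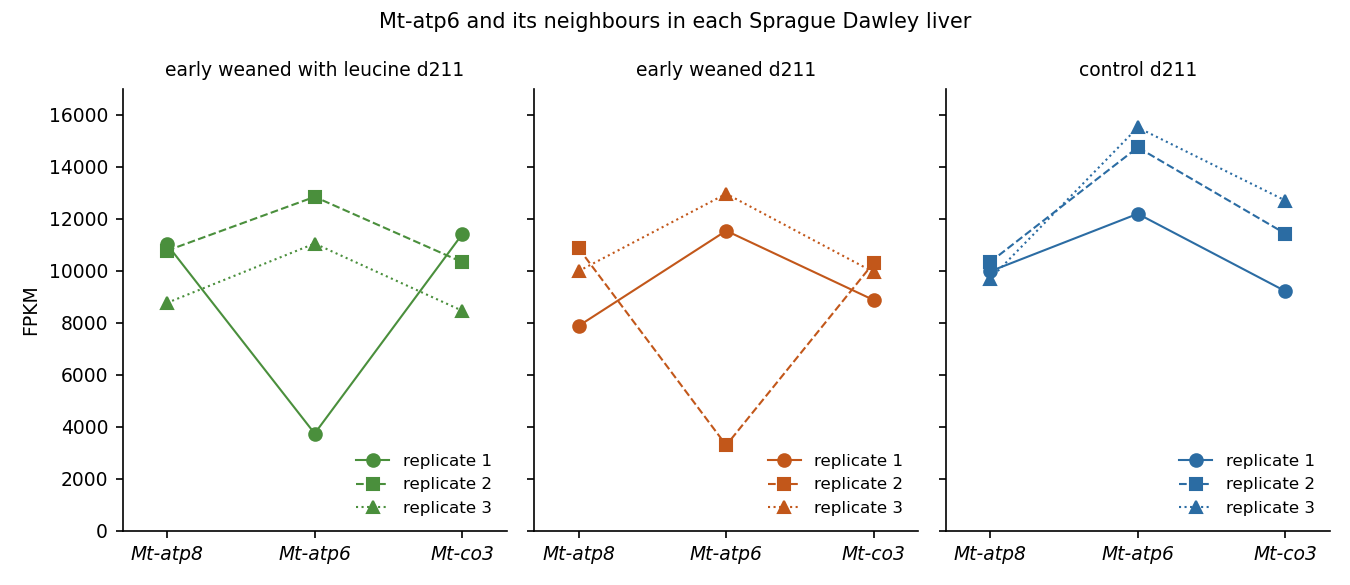
FPKM of the adjoining genes Mt-atp8, Mt-atp6 and Mt-co3 in each SD library, by group. Mt-atp6 lies at 3740 FPKM in 1 liver given leucine and at 3288 FPKM in 1 early weaned liver at d211, while both other genes stay within or just above the range of the other SD libraries.

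Rats of d23 are near the usual age of weaning and rats of d63 are young adults, and mitochondrial transcripts were lower at the later age. Averaged over weaning groups, 15 of 36 tested genes fell at d63 and none rose, while 19 had an unadjusted p below 0.05 (52.8%, against 52.3% of all genes tested). They were 7 of 13 mRNAs, both rRNAs and 6 of 21 tested tRNAs. Over all 15416 tested genes 22.8% fell and 20.5% rose by the same test, so a fall by itself was common at this step (edgeR quasi-likelihood test, Benjamini-Hochberg adjusted p below 0.05). The median log2 fold change of the 13 mRNAs was -0.32, against -0.03 over all genes tested.

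Mt-cyb, the apocytochrome of complex III, had 6509, 6218 and 6477 FPKM in early weaned and 6667, 6944 and 5544 FPKM in control livers at d63. At d23 it had 10265, 8349 and 10447 FPKM in early weaned and 9589, 10148 and 8631 FPKM in control livers. All 6 livers at d63 lay below all 6 at d23, and Mt-cyb fell by 0.52 on the log2 scale (SE 0.104, edgeR adjusted p = 0.00314). Mt-nd6, the complex I subunit on the light strand, had 2195, 2087 and 2211 FPKM in early weaned and 2034, 2219 and 1479 FPKM in control livers at d63. At d23 it had 4390, 2870 and 3442 FPKM in early weaned and 2971, 3486 and 2997 FPKM in control livers. Again the ages did not overlap, and the light-strand mRNA fell by 0.65 (SE 0.136, edgeR adjusted p = 0.00365).

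Mt-nd3, another small complex I subunit, fell by 0.57 (SE 0.137, edgeR adjusted p = 0.00748). Mt-atp6 had 16769, 15800 and 17102 FPKM in early weaned and 17397, 17462 and 15926 FPKM in control livers at d63, against 25465, 20234 and 23701 FPKM in early weaned and 21170, 22062 and 22309 FPKM in control livers at d23. It fell by 0.36 (SE 0.0935, edgeR adjusted p = 0.0107), without overlap. Mt-co2, Mt-nd1 and Mt-nd5 also passed, with log2 fold changes of -0.36, -0.32 and -0.40 (edgeR adjusted p = 0.0114, 0.0176 and 0.0267). The ages did not overlap over 6 livers against 6 for Mt-atp6, Mt-co2, Mt-cyb, Mt-nd1, Mt-nd3 and Mt-nd6, while 10.5% of genes at 1 FPKM or more lay lower in that way. Mt-co1 and Mt-nd2 were level, with log2 fold changes of -0.02 and 0.04, whose signs depend on the scaling. Mt-atp8, Mt-nd4l, Mt-co3 and Mt-nd4 were at -0.17, -0.17, -0.25 and -0.29 and did not pass (edgeR adjusted p between 0.0612 and 0.247).

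**Figure D4:**
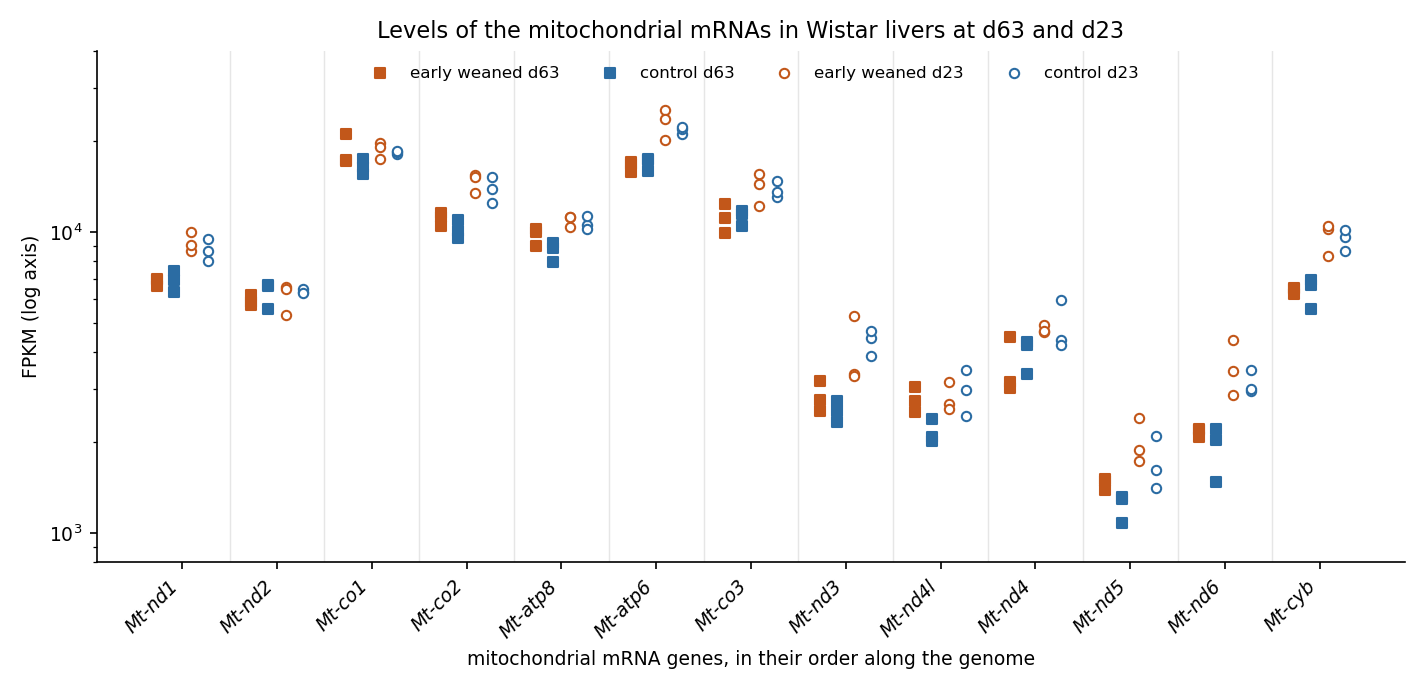
FPKM of the 13 mitochondrial mRNAs in map order in the 12 Wistar livers, with points for libraries in 4 groups. The d63 points of Mt-cyb, Mt-nd6, Mt-atp6, Mt-co2, Mt-nd1 and Mt-nd3 lie below all d23 points, whereas those of Mt-co1 and Mt-nd2 mix.

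The tRNA ENSRNOG00000032997 had 289, 245 and 275 FPKM in early weaned and 266, 234 and 185 FPKM in control livers at d63. At d23 it had 860, 506 and 532 FPKM in early weaned and 553, 744 and 422 FPKM in control livers. It had the smallest p of the set, fell by 1.21 (SE 0.178, edgeR adjusted p = 0.000722) and did not overlap between ages. ENSRNOG00000032112, a heavy-strand tRNA gene at bases 2665 to 2739 between the longer rRNA and Mt-nd1, fell by 1.01 (SE 0.249, edgeR adjusted p = 0.00815). The longer rRNA had 305, 179 and 200 FPKM in early weaned and 231, 141 and 206 FPKM in control livers at d63, against 641, 523 and 284 FPKM in early weaned and 439, 506 and 140 FPKM in control livers at d23. Both rRNAs fell, the longer by 0.93 and the shorter by 0.55 (edgeR adjusted p = 0.0344 and 0.0332), although for both the ages overlapped. Control d23 replicate 3 was the lowest liver of d23 for both, and without that library 18 mitochondrial genes fell in place of 15. Calls over all genes grew in the same step, with 4157 genes lower in place of 3514.

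Within control livers alone 6 mitochondrial genes fell at d63 (9.61% of all genes tested fell), and within early weaned livers alone 3 fell (13.5% of all genes). The 3 were Mt-nd6, Mt-cyb and ENSRNOG00000032997, and all 3 were among the 6 of the controls. Of the 13 mRNAs, 9 lay wholly below d23 in early weaned livers, where 36% of genes at 1 FPKM or more did, and 11 in control livers, where 17.3% did.

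Many nuclear genes of the same complexes fell at d63, beside the 22.8% of all tested genes that did. In complex I 16 of 35 tested subunit genes fell and 1 rose, in complex III 6 of 9 fell, in complex IV 8 of 10, and in ATP synthase 11 of 17. In complex II, which has no mitochondrially encoded subunit, 2 of 4 fell. Cyc1, the cytochrome c1 of complex III, had 93.0, 92.6 and 97.1 FPKM in early weaned and 82.0, 93.2 and 80.8 FPKM in control livers at d63, against 216, 188 and 184 FPKM in early weaned and 188, 163 and 204 FPKM in control livers at d23, and fell by 1.02. Ndufs4, a complex I assembly and stability subunit, fell by 0.71, Cox5b of complex IV by 0.70 and Atp5po, a stalk subunit of ATP synthase, by 0.68 (edgeR adjusted p = 0.00044, 0.000916 and 0.00111). Sdhb, the iron-sulfur subunit of complex II, fell by 0.63 (edgeR adjusted p = 0.000922). These lists were written with earlier results of the same libraries known, so their direction is described and not tested as lists.

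The lists of genes that act on mitochondrial gene expression differed from each other at d63. Of 9 biogenesis regulators 7 fell and 1 rose, of 28 RNA processing and stability genes 15 fell and 2 rose, and of 18 transcription and replication genes 3 fell and 5 rose, beside the 22.8% of all genes that fell and the 20.5% that rose. Ppargc1a, the coactivator PGC-1alpha, had 0.64, 0.39 and 0.64 FPKM in early weaned and 0.98, 1.47 and 0.73 FPKM in control livers at d63, against 21.3, 52.5 and 39.7 FPKM in early weaned and 54.5, 15.3 and 2.35 FPKM in control livers at d23. All d63 livers lay below all d23 livers, control d23 replicate 3 being the lowest of those, and the gene fell by 5.24 (SE 0.669, edgeR adjusted p = 0.000356). Esrra, an orphan nuclear receptor that acts with it on respiratory genes, fell by 1.62 (SE 0.192, edgeR adjusted p = 0.00025), and Ppargc1b and Sirt3 fell by 2.89 and 1.23. Ppargc1b, a relative of Ppargc1a, had 0.45, 0.26 and 0.78 FPKM in early weaned and 0.81, 0.73 and 0.70 FPKM in control livers at d63, against 4.13, 8.38 and 4.32 FPKM in early weaned and 5.77, 5.69 and 0.57 FPKM in control livers at d23. Control d23 replicate 3 thus lay among the d63 livers for this gene. Without that library Ppargc1a, Esrra, Ppargc1b and Sirt3 fell by 5.51, 1.76, 3.14 and 1.24, and 8 of the 9 regulators fell. In the nuclear respiratory lists 15 of 35 complex I, 6 of 9 complex III, 7 of 10 complex IV and 10 of 17 ATP synthase genes then fell. The complex I genes Ndufv3, Ndufb4, Ndufb10 and Ndufc1 rose in that fit. Over all genes 4157 fell and 4181 rose in it, against 3514 and 3162 with all libraries. Among the RNA processing genes Lrpprc, which binds and stabilizes mitochondrial mRNAs, fell by 1.08 (edgeR adjusted p = 0.000829), and the FAST kinase family members Fastkd1, Tbrg4 and Fastk by 1.72, 1.22 and 0.71. Polrmt, the mitochondrial RNA polymerase, fell by 0.42 and Tfb2m, its initiation factor, by 0.60 (edgeR adjusted p = 0.00438 and 0.00787), while Lig3, a DNA ligase used in mitochondria and nucleus, rose by 0.92 (edgeR adjusted p = 0.000183).

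Marker genes of the cell types that liver tissue can hold were counted at the same step, at which 20.5% of all tested genes rose and 22.8% fell. Of 8 hepatocyte markers 4 rose at d63, Hnf4a by 0.82, Apob by 0.99, Ttr by 1.21 and Tf by 0.89. The summed FPKM of the 8 was 83951 to 91910 in early weaned and 84352 to 85907 in control livers at d63, against 54709 to 64649 in early weaned and 73073 to 119678 in control livers at d23. Of 6 lymphocyte markers 4 rose, with sums of 3.36 to 5.24 FPKM in early weaned and 3.55 to 9.61 FPKM in control livers at d63, against 1.31 to 2.01 and 0.90 to 2.02 FPKM in early weaned and control livers at d23, where Ms4a1 was at 0 in the early weaned group. Endothelial markers went the other way, with 3 of 5 lower by the test and sums of 29.5 to 43.1 FPKM in early weaned and 40.5 to 67.9 FPKM in control livers at d63, against 75.3 to 96.4 and 76.4 to 83.5 FPKM in early weaned and control livers at d23. Of the remaining lists, 2 of 7 Kupffer cell, 2 of 5 stellate cell and 1 of 4 cholangiocyte markers fell, with the first and the last of these near the share over all genes, and none of 4 erythroid markers passed. Without control d23 replicate 3 the hepatocyte marker Alb rose as well, by 0.42 (edgeR adjusted p = 0.0119). The lymphocyte markers that rose were then Ptprc, Cd79b and Nkg7, and the only Kupffer cell marker that fell was Cd163. The part of these markers in the lower mitochondrial levels was not tested.

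The next question was whether early weaning itself changed mitochondrial transcripts at either Wistar age. At d23 none of the 36 tested genes passed, nor did any have an unadjusted p below 0.05 (6.2% of all genes did), and DESeq2 and limma also called none. Over all genes 0.013% passed. The median log2 fold change of the 13 mRNAs was 0.00, against -0.03 over all genes. Mt-nd6 was at 0.15 (edgeR adjusted p = 0.992), and the smallest p values belonged to the tRNA ENSRNOG00000029389 at -1.26 and the shorter rRNA at 0.39 (edgeR adjusted p = 0.81 and 0.92). Without control d23 replicate 3 the shorter rRNA was at 0.19.

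At d63 again none of 36 passed in edgeR, DESeq2 or limma, with 3 at an unadjusted p below 0.05, or 8.33%, against 6.05% of all genes, and 0% of all genes passed. The 13 mRNAs had a median log2 fold change of 0.21, against -0.01 over all genes, and 11 of 13 were higher in early weaned livers, or 8 of 13 without composition scaling. Mt-nd4l, a small complex I subunit, had 3059, 2521 and 2734 FPKM in early weaned and 2392, 2015 and 2087 FPKM in control livers. The groups did not overlap, yet its log2 fold change of 0.44 (SE 0.162, edgeR adjusted p = 0.742) did not pass. The tRNA ENSRNOG00000032274 was at 0.52 and Mt-nd6 at 0.27 (edgeR adjusted p = 0.793 and 0.942). In all, 2 of 13 mRNAs were higher without overlap, where 5.65% of all genes at 1 FPKM or more were.

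The difference between the ages in the effect of weaning was tested as an interaction, which answers whether the response at d63 differs from that at d23. No mitochondrial gene passed in it in edgeR, DESeq2 or limma, 1 had an unadjusted p below 0.05 (4.72% of all genes did), and 1 of 15416 genes did pass, or 0.00649%. The smallest p values were those of ENSRNOG00000029145 and Mt-nd4l, at log2 values of 0.58 and 0.55, and Mt-nd6 was at 0.12. Of the nuclear lists none had a gene past the threshold at d23 or at d63. At d63, 31 of 35 complex I, 9 of 9 complex III, 10 of 10 complex IV and 17 of 17 ATP synthase genes had a log2 fold change above 0, with medians of 0.19, 0.28, 0.20 and 0.28. Without composition scaling these counts were 26, 9, 9 and 15, a setting added after seeing the data.

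Markers of several other cell types, though not of all, were lower beside these values. At d63 all 7 Kupffer cell, 5 endothelial, 6 lymphocyte and 4 erythroid markers had fitted log2 fold changes below 0 in early weaned against control livers, with medians of -0.56, -0.66, -1.24 and -0.94, and none passed. Of the stellate cell markers 2 of 5 were higher, with a median of -0.34, and of the cholangiocyte markers 2 of 4, with a median of -0.19. The Kupffer cell markers, which label liver macrophages, summed to 155 to 222 FPKM in early weaned and 204 to 437 FPKM in control livers. The median of these sums was 221.5 FPKM in early weaned and 216 FPKM in control livers. Endothelial markers summed to 29.5 to 43.1 FPKM in early weaned and 40.5 to 67.9 FPKM in control livers. Of 8 hepatocyte markers 6 were higher, with a median of 0.07, or 3 of 8 without composition scaling. None of these defining markers was at 0 in either group at d63, except Krt7 of the bile duct cells in the early weaned group. The part of these markers in the mitochondrial values at d63 was not tested.

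At d211 the early weaned SD livers had fitted log2 fold changes below 0 for nearly every mitochondrial gene, though no single gene passed. This held for all 13 mRNAs, both rRNAs and 14 of 15 tested tRNAs, and for the 13 mRNAs under every scaling tried. None of 30 tested genes passed edgeR's adjusted threshold, 0.719% of all 15019 genes did, and 14 of the 30 had an unadjusted p below 0.05, namely 6 mRNAs, 1 rRNA and 7 tRNAs. These 14 are 46.7% of the set, against 17.3% of all genes tested. DESeq2 called 10 lower and limma on log2 FPKM 2. How many of all genes these methods called is not given here, so their counts are not read as particular to the set. The median log2 fold change of the 13 mRNAs was -0.51, against 0.02 over all genes, and ran from -0.86 for Mt-atp6 to -0.25 for Mt-co1. Without composition scaling these medians were -0.31 for the mRNAs and 0.24 over all genes, so their distance changed little, at -0.52 to -0.58 over the scalings tried.

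Mt-nd1, a core complex I subunit, had 5048, 5186 and 5696 FPKM in early weaned and 6114, 7036 and 7817 FPKM in control livers, with a log2 fold change of -0.61 (edgeR adjusted p = 0.0899). Mt-nd2, its neighbour on the map, had 3333, 3851 and 4121 FPKM in early weaned and 4271, 5151 and 5644 FPKM in control livers, at -0.63 (edgeR adjusted p = 0.109). Mt-nd6 had 1110, 1420 and 1246 FPKM in early weaned and 1521, 1737 and 1847 FPKM in control livers, at -0.64 (SE 0.177, edgeR adjusted p = 0.109). In each of these the 3 early weaned livers lay below the 3 control livers. The same held for Mt-co2, which makes 4 of 13 mRNAs lower without overlap, where 4.74% of genes at 1 FPKM or more were lower in that way and 22.9% higher. Mt-atp6 was at -0.86 (SE 0.505, edgeR adjusted p = 0.433), with replicate 2 of the early weaned group far below the other libraries. Without that library it was at -0.47 (edgeR adjusted p = 0.657), so that its place as the lowest of the 13 rests on 1 liver.

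The longer rRNA had 81.5, 87.2 and 84.0 FPKM in early weaned and 112, 116 and 143 FPKM in control livers, at -0.76 (SE 0.151, edgeR adjusted p = 0.0582). The shorter rRNA had 150, 157 and 171 FPKM in early weaned livers and overlapped with control livers at 142, 169 and 168 FPKM. The ratio of the longer to the shorter in FPKM was 0.530 ± 0.0334 in early weaned and 0.775 ± 0.0823 in control livers (SD, n = 3 each), without overlap, and 0.648 ± 0.0838 in livers given leucine.

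The smallest p of the set again belonged to the light-strand tRNA ENSRNOG00000032997, with 154, 264 and 165 FPKM in early weaned and 415, 436 and 535 FPKM in control livers. Its log2 fold change was -1.44 (SE 0.279, edgeR adjusted p = 0.055), and every early weaned liver lay below every control liver. Altogether 9 of 22 tRNA genes were lower without overlap, where 4.74% of genes at 1 FPKM or more were lower and 22.9% higher in that way. Among them, and chosen after their values were seen, were the 4 light-strand genes that lie in a row between Mt-nd2 and Mt-co1. Light-strand genes held 78.5% ± 0.547 of tRNA counts in early weaned and 84.2% ± 0.773 in control livers (SD, n = 3 each), without overlap, and 81.7% ± 4.28 in livers given leucine.

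Results at d211 depend on 1 library. Without replicate 2 of the early weaned group, the library with low Mt-atp6, 5 mitochondrial genes fell in place of 0, among them ENSRNOG00000032997 by 1.79, the longer rRNA by 0.83 and Mt-nd6 by 0.79 (edgeR adjusted p = 0.00825, 0.0335 and 0.0433). Calls over all genes grew in the same step, to 333 up and 201 down, against 63 and 45 with all libraries.

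The nuclear respiratory genes had fitted log2 fold changes mostly below 0 in early weaned livers at d211, with none past the threshold in any list, and their direction depended on the scaling. Below 0 were 34 of 35 complex I, 8 of 9 complex III, 10 of 10 complex IV and 16 of 17 ATP synthase genes, with median log2 fold changes of -0.30, -0.28, -0.28 and -0.19. Without composition scaling, a setting added after seeing the data, 25 of 35, 6 of 9, 6 of 10 and 6 of 17 were below 0, with medians of -0.07, -0.06, -0.06 and 0.03, while the median over all genes was 0.24. Cox5b, for one, had 352, 342 and 360 FPKM in early weaned and 317, 320 and 332 FPKM in control livers, so all early weaned livers were higher in unscaled values. It was chosen after its values were seen. The smallest p values of the lists belonged to Ndufa6, Uqcrfs1, Cox7c and Atp5mc2, at -0.55, -0.31, -0.39 and -0.38 (edgeR adjusted p between 0.0899 and 0.187). Twnk, the helicase that unwinds mitochondrial DNA, had 5.27, 5.94 and 4.66 FPKM in early weaned and 6.78, 7.75 and 8.24 FPKM in control livers, at -0.73 (edgeR adjusted p = 0.0753). Lrpprc had 16.2, 18.9 and 15.8 FPKM in early weaned and 20.05, 22.01 and 24.4 FPKM in control livers, at -0.59 (edgeR adjusted p = 0.112). In both genes the groups did not overlap, where 4.74% of genes at 1 FPKM or more were lower in that way and 22.9% higher. Both were named by the rule of smallest p in a list, so little can be read from their separation. How many other genes of these lists were lower without overlap is not given here. Esrra was at -0.38 (edgeR adjusted p = 0.269).

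Markers of other cell types stood beside this difference. None of any marker list passed at d211, but the cholangiocyte markers, which label bile duct cells, summed to 15.2 to 29.4 FPKM in early weaned livers and 8.54 to 14.1 FPKM in those given leucine, against 7.64 to 12.5 FPKM in control livers, and the early weaned and control livers did not overlap. Epcam led them with a log2 fold change of 1.04 (edgeR adjusted p = 0.0903). It had 24.5, 14.0 and 28.3 FPKM in early weaned livers and so made up most of the sums in that group. In the fit with composition scaling 4 of 4 erythroid, 5 of 6 lymphocyte and 5 of 7 Kupffer cell markers were higher too. Their medians were 0.48, 0.43 and 0.22. Of the stellate cell markers 4 of 5 were lower, and of the endothelial markers 3 of 5, with medians of -0.33 and -0.23. Of 8 hepatocyte markers 7 were lower, with a median of -0.34 (5 of 8 and -0.13 without composition scaling), and their summed FPKM was 72746 to 79005 in early weaned and 73671 to 80054 in control livers. The part of these markers in the lower mitochondrial values was not tested.

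**Figure D5:**
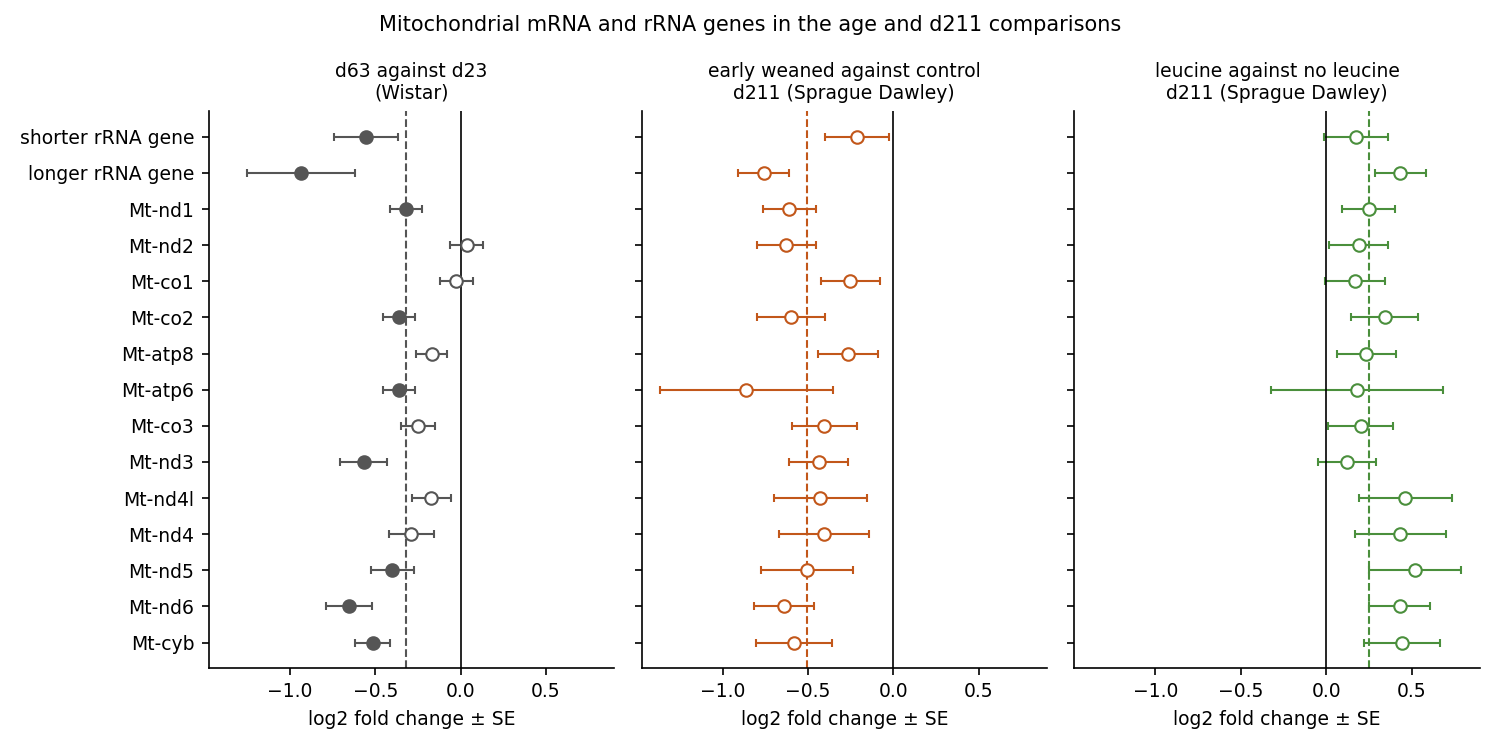
Log2 fold change of each mitochondrial mRNA and rRNA gene in the comparisons of age, early weaning and leucine, in map order. Bars show 1 SE, filled points an edgeR adjusted p below 0.05 and a dashed line the median of the 13 mRNAs. The tRNA genes are not drawn. Filled points appear only for d63 against d23, while at d211 the mRNA median is -0.51 for early weaned against control and 0.25 for leucine against none.

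Leucine in drinking water was compared next with plain early weaning at d211, to see whether the transcripts differed between the supplemented and unsupplemented livers. This comparison shares the early weaned livers with the one against control, so values of both are given side by side and not related to each other. All 13 mRNAs, both rRNAs and all 15 tested tRNAs had fitted log2 fold changes above 0 with leucine, or 11 of 13 mRNAs without composition scaling. In unscaled FPKM the means of Mt-atp6 and Mt-nd3 were slightly lower with leucine, at 9214 ± 4825 and 1883 ± 307 FPKM, against 9266 ± 5226 and 1931 ± 55.0 FPKM without it (SD, n = 3 each). For Mt-atp6 the log2 fold change of 0.18 was 0.55 without the low library of the leucine group, -0.21 without that of the early weaned group and 0.16 without both. None of the 30 passed in edgeR (0.36% of all genes did), 4 had an unadjusted p below 0.05, or 13.3% against 13.1% of all genes, DESeq2 called 1 higher and limma none. The mRNA median was 0.25, against -0.00 over all genes, and no mitochondrial gene was free of overlap between the groups, whereas 5.15% of genes at 1 FPKM or more were higher without overlap.

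ENSRNOG00000032997 had 439, 328 and 263 FPKM with leucine, against 154, 264 and 165 FPKM in early weaned livers without it, at 0.96 (SE 0.276, edgeR adjusted p = 0.156). The longer rRNA had 106, 115 and 86.2 FPKM with leucine, against 81.5, 87.2 and 84.0 FPKM without it, at 0.43 (edgeR adjusted p = 0.237). Mt-nd6 had 1669, 1663 and 1259 FPKM with leucine, against 1110, 1420 and 1246 FPKM without it, at 0.43 (SE 0.177, edgeR adjusted p = 0.337). In these genes 2 of the 3 livers given leucine lay above all early weaned livers, and replicate 3 of the leucine group lay among them or just below the highest. The tRNA ENSRNOG00000029145 was at 0.62 (edgeR adjusted p = 0.211). Of the nuclear lists none had a gene past the threshold, with 34 of 35 complex I, 8 of 9 complex III, 7 of 10 complex IV and 15 of 17 ATP synthase genes above 0 at medians of 0.13, 0.06, 0.05 and 0.10. Without composition scaling these counts were 12, 2, 0 and 3, with medians of -0.03, -0.09, -0.11 and -0.06. The median over all genes was then -0.16, against -0.00 with composition scaling. The sign of these list medians thus turned with the scaling, while they lay above the median over all genes in both settings. Fitted with composition scaling, Twnk was at 0.45 and Lrpprc at 0.50 (edgeR adjusted p = 0.272 and 0.216).

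Most marker lists, that of hepatocytes included, had more genes higher than lower with leucine. All 7 Kupffer cell, 5 endothelial, 5 stellate cell and 4 erythroid markers had fitted log2 fold changes above 0, with medians of 0.22, 0.39, 0.55 and 0.58, and none passed. Without composition scaling the counts were 5, 5, 4 and 4. The stellate cell markers summed to 14.2 to 16.8 FPKM in livers given leucine and 10.7 to 12.7 FPKM in early weaned livers without it, without overlap. Fitted with composition scaling, 5 of 8 hepatocyte markers were higher, with a median of 0.20. Of the 6 lymphocyte markers 1 was higher, and of the 4 cholangiocyte markers 1. The part of these markers in the mitochondrial values was not tested.

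Livers given leucine were also set against control livers, which both comparisons of early weaned livers share. None of 30 genes passed in edgeR, DESeq2 or limma (0.0133% of all genes did in edgeR), 5 had an unadjusted p below 0.05 (16.7%, against 10.8% of all genes), 10 of 13 mRNAs were lower and the median was -0.20. The smallest p values were those of ENSRNOG00000032112 and Mt-nd2, at -0.64 and -0.44 (edgeR adjusted p = 0.424 and 0.437), and Mt-nd6 was at -0.21 (edgeR adjusted p = 0.707). ENSRNOG00000032112 had 28.8, 37.4 and 30.3 FPKM in early weaned livers given leucine, 26.1, 32.6 and 28.1 FPKM in early weaned livers and 44.9, 50.8 and 48.3 FPKM in control livers. For this tRNA both early weaned groups lay below all control livers. It was 1 of 3 tRNA genes lower without overlap in livers given leucine, where 7.67% of genes at 1 FPKM or more were.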

How the data were processed

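Liver RNA of 21 samples was sequenced. Per the labels' protocols, RNA was column-extracted and made into libraries with a SMARTER mRNA kit. Which aligner, counter and strand setting were used is not given in the sources used here. Although GRCm38 and mm10, both mouse, are the builds in the submitters' processing notes, the tables hold rat identifiers and coordinates, printed as they stand. The authors deposited 1 table per strain, with a count column and an FPKM column for each library per the file headers. The deposited counts are whole, unnormalized numbers that pile up at multiples of 4, so they were treated as estimated counts. The authors' FPKM scaling was for length and depth.

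Each table was fitted alone on its counts with edgeR 4.0.16 (R 4.3.3): group means, TMM scaling to correct for composition, filterByExpr at a minimum count of 10, two-sided quasi-likelihood tests and Benjamini-Hochberg adjustment over all tested genes, with 0.05 as the threshold. The scripts were tested on simulated data. The biological coefficient of variation was 0.404 in the Wistar and 0.379 in the SD table. Alternatives were DESeq2 1.42.0, limma 3.58.1 on log2 FPKM plus 1 or 0.1, counts divided by 4, other scalings, no filter, a replicate block and leaving out libraries. Shares, ratios and medians are descriptions. Named were the genes past the threshold, at most the 6 of smallest p, the 2 of smallest p, Mt-nd6 and, of nuclear lists, at most 4 of smallest p or the 1 of smallest p where none passed. The members and lists were chosen with earlier results of these data known.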

Additional observations from a re-analysis of the deposited data

Results flagged for a closer look

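For 3 tRNA genes every early weaned liver lay above every control liver at d63 and below every control liver at d211. The difference in mean FPKM between early weaned and control livers was 22.1 at d63 and -19.1 at d211 for ENSRNOG00000032112, a heavy-strand gene between the longer rRNA gene and Mt-nd1. It was 127 at d63 and -73.3 at d211 for ENSRNOG00000032609, a light-strand gene between Mt-nd2 and Mt-co1, and 72.4 at d63 and -45.4 at d211 for the tRNA gene ENSRNOG00000029145. Over all genes at 1 FPKM or more, 5.65% were higher without overlap at d63 and 4.74% lower without overlap at d211, and 53 of the 10407 genes at that level at both ages, or 0.509%, were both. The opposite pattern, lower at d63 and higher at d211, was found for 445 genes, or 4.28%. The change of sign was not tested, since the ages differ in strain and were normalized in separate tables, and none of the 3 genes passed the edgeR threshold in either comparison.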

How the results depend on the processing

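Of 222 recomputed values of the main comparisons, settings that leave out 1 library aside, 203 stayed within set limits of the main value. All main counts of calls were 0 except that of genes lower at d63 than at d23. A count of 0 that stayed at 0 was taken as within the limits, and such pairs are among the 203. The limits were the spread within groups for medians and shares, and a fixed ratio for counts, without regard to sign. The mRNA median for early weaned against control at d23, for one, was 0.0045 in the main fit and -0.024 with upper quartile scaling. At d211, early weaned against control, the 0 genes that fell became 10 with DESeq2, 1 without TMM, 1 without the filter, 2 with limma on log2(FPKM + 1), 2 with limma on log2(FPKM + 0.1), 2 with counts divided by 4, and 3 without both libraries of low Mt-atp6, a setting added after seeing the data. The mRNA median there was -0.31 without TMM, -0.36 with limma at either pseudocount and -0.64 without those 2 libraries. At d63 the mRNA median was 0.12 without TMM and 0.12 with limma at either pseudocount, and the interaction median was 0.0023 without TMM. Leucine against none gave 1 higher gene with DESeq2. For d63 against d23, 6 genes fell in controls alone and 3 in early weaned livers alone, both settings added after seeing the data, and the share measured on summed FPKM differed by -4.09 points. Calls over all genes under these settings are not given here, so the changed counts are not read as particular to the mitochondrial genes. The median over all genes moved as well without TMM. At d63 the mRNA median lay 0.216 above it in the main fit and 0.217 without TMM. In the interaction these distances were 0.083 and 0.084. The cause of the shifts under these settings was not tested.

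Leaving out 1 library at a time gave 0 to 5 lower genes at d211 and a median of -0.64 to -0.42 (5 and -0.64 without early weaned d211 replicate 2), and 0 to 1 higher gene with leucine (1 without the same library). It gave 9 to 18 lower genes for d63 against d23, 9 without control d23 replicate 2 or early weaned d63 replicate 2 and 18 without control d23 replicate 3. Over all genes 2912 to 4157 were lower in that comparison, most without control d23 replicate 3. At d211, 1 to 201 of all genes were lower in early weaned livers and 1 to 221 higher with leucine. The d63 weaning median was 0.10 to 0.24, lowest without control d63 replicate 3. Mt-nd6 changed sign at d23, with a range of -0.024 to 0.27, and in the interaction, with a range of -0.047 to 0.29 that includes -0.0040 without early weaned d23 replicate 2.

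Replicate numbers did not pair the samples, as same-numbered libraries had correlations of their deviations between -0.108 and 0.127 in the Wistar and between -0.0902 and 0.122 in the SD table. With a replicate block 13 mitochondrial genes fell for d63 against d23 in place of 15, and 0 passed at d211. Calls over all genes in that fit are not given here, so these counts are not read as particular to the mitochondrial genes. Depth limits the tRNA genes of few counts, such as ENSRNOG00000031780 with at most 4 in a library.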
